A study of Homo sapiens with 2 samples.

Results

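Microtubule genes were compared between RKO cells given a control siRNA and RKO cells given an siRNA against hnRNPK. The set holds 43 genes out of 40205 rows of the deposited table, chosen by symbol as tubulins, tubulin folding cofactors and microtubule regulators. RKO is an established human colorectal cancer line, and hnRNPK is a nuclear and cytoplasmic RNA-binding protein. Both groups were transfected with siRNA, were collected on day 2 and hold 1 library each. The genotype label of the depleted library is written hnRNPK-/-, while its title (sihnRNPK) and the protocol describe siRNA, so depletion by siRNA is taken here, and the samples are called the control library and the depleted library (control siRNA and hnRNPK siRNA in the plots). With 1 library per group no difference below has a replicate check and no p-value was computed.

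Microtubules are hollow polymers of paired α- and β-tubulin that carry cargo, shape the cell and form the mitotic spindle. New tubulin chains are folded by prefoldin and the chaperonin CCT and are then joined into pairs by the cofactors TBCA to TBCE. Rings of γ-tubulin and its partners start new filaments, while other proteins stabilise, track, cut or chemically mark them. Tubulin mRNA is also subject to autoregulation, in which the first residues of a nascent tubulin chain are recognised by TTC5 and the message is degraded when free tubulin is plentiful.

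The sequences that this autoregulation reads are shown first, since they are what the β-tubulin genes, otherwise different in level and in ratio, have in common. The lines give the first 30 coding bases of each β-tubulin gene from GENCODE 29 transcripts (GRCh38), with the first 12 bases, the recognised start, in capitals. The genes lie on chromosome 6 (TUBB, TUBB2A and TUBB2B), 9 (TUBB4B), 16 (TUBB3), 18 (TUBB6) and 19 (TUBB4A).
TUBB: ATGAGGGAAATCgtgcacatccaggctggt
TUBB2A: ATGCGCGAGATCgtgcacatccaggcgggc
TUBB2B: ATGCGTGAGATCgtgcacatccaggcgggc
TUBB3: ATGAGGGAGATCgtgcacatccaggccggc
TUBB4A: ATGCGGGAGATCgtgcacctgcaggccggc
TUBB4B: ATGAGGGAAATCgtgcacttgcaggccggg
TUBB6: ATGAGGGAGATCgtgcacatccaggcgggc
The 12 capital bases were spelled in 5 ways over the 7 genes through synonymous codons.

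The other end of the coding sequence is where the isotypes differ most and where the tyrosine ligase and the glutamylases described below act. The last 54 coding bases before the stop codon are shown for the β-tubulin genes whose values carry the comparison, with in-frame glutamate codons (GAA or GAG), the residues that glutamylases extend, in capitals.
TUBB: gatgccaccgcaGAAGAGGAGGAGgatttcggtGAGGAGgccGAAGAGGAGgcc
TUBB4B: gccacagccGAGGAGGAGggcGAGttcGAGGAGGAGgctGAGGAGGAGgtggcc
TUBB3: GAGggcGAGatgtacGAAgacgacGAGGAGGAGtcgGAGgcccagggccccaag
Of these 18 codons, 9 encode glutamate in TUBB, 10 in TUBB4B and 7 in TUBB3.

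Of the α-tubulin genes, TUBA1C on chromosome 12 and TUBA4A on chromosome 2 are shown by their last 30 coding bases, with a final tyrosine codon, the residue that tubulin tyrosine ligase (TTL) puts back after its removal, in capitals.
TUBA1C: gctgacggagaggatgagggtgaagagTAT
TUBA4A: tcctatgaggacgaggatgagggagaagaa
The tyrosine codon was present in TUBA1C and absent from TUBA4A.

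Values are FPKM, reads scaled by gene length and library size, as deposited. The reads behind them could be worked out (25729856 in the control library and 28550823 in the depleted library as the smallest totals that give the values), so each ratio carries an exact Clopper-Pearson 95% interval that covers counting error only. Where the true reads of a gene are a multiple of those worked out, its interval is too wide. Reads can be copies of one molecule, and differences between cultures are not in these intervals. HNRNPK itself was at 338.0 FPKM in the control library and 61.5 in the depleted library, 18.2% of the control level.

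Of 5 epithelial markers, EPCAM, KRT8 and KRT18 were detected at 5.03 to 74.8 FPKM, while CDH1 and KRT19 were at 0 in both libraries, and of 5 intestinal markers CDX2 was the 1 with a mean of at least 1 FPKM. Of 8 neuron markers 0 reached a mean of 1 FPKM, and their summed level was 0.0291 FPKM in the control library and 0.0218 in the depleted library, with RBFOX3, STMN2, DCX and ELAVL4 at 0 in both. Markers of fibroblasts summed to 0.00656 and 0.0355 FPKM, and those of blood cells were at 0.

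Of the 43 genes, 38 had a mean of at least 1 FPKM over both libraries and entered the counts, with 104 to 16298 reads in the control library and 59 to 16630 in the depleted library. The other 5 were TUBB4A, TUBB6, MAP1B, MAPRE3 and HDAC6. Counts and log2 ratios use FPKM + 1, which shrinks the differences of weakly expressed genes, whereas ratios and folds printed for a gene use FPKM alone. At least 2-fold lower in the depleted library were 4 of the 38 (10.5%), against 3.55% of the 11454 genes of the whole table that met the same minimum. These 4 were TUBB3, CLASP2, TTL and TBCD. None of the 38 was 2-fold higher, against 0.777% of all genes. At 1.5-fold, MAP4, TUBG1 and TTLL5 joined the lower side, so that 7 of 38 (18.4%) lay past it, close to the background of 14.7%, and 0 lay past it on the higher side, against 3.67%. The gene just inside 2-fold was TBCD, with a log2 ratio of −1.07, and the one just outside was MAP4 at −0.82. The median log2 ratio was −0.28 for the 38 genes and −0.15 for all genes, and 23 of the 38 lay below the latter. The counting interval lay below 1 for 23 of the 38 (background 48.4%), above 1 for 6 (background 20.8%) and held 1 for 9. An interval that held 1 may exclude it where true reads are a multiple of those worked out.

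**Figure D1:**
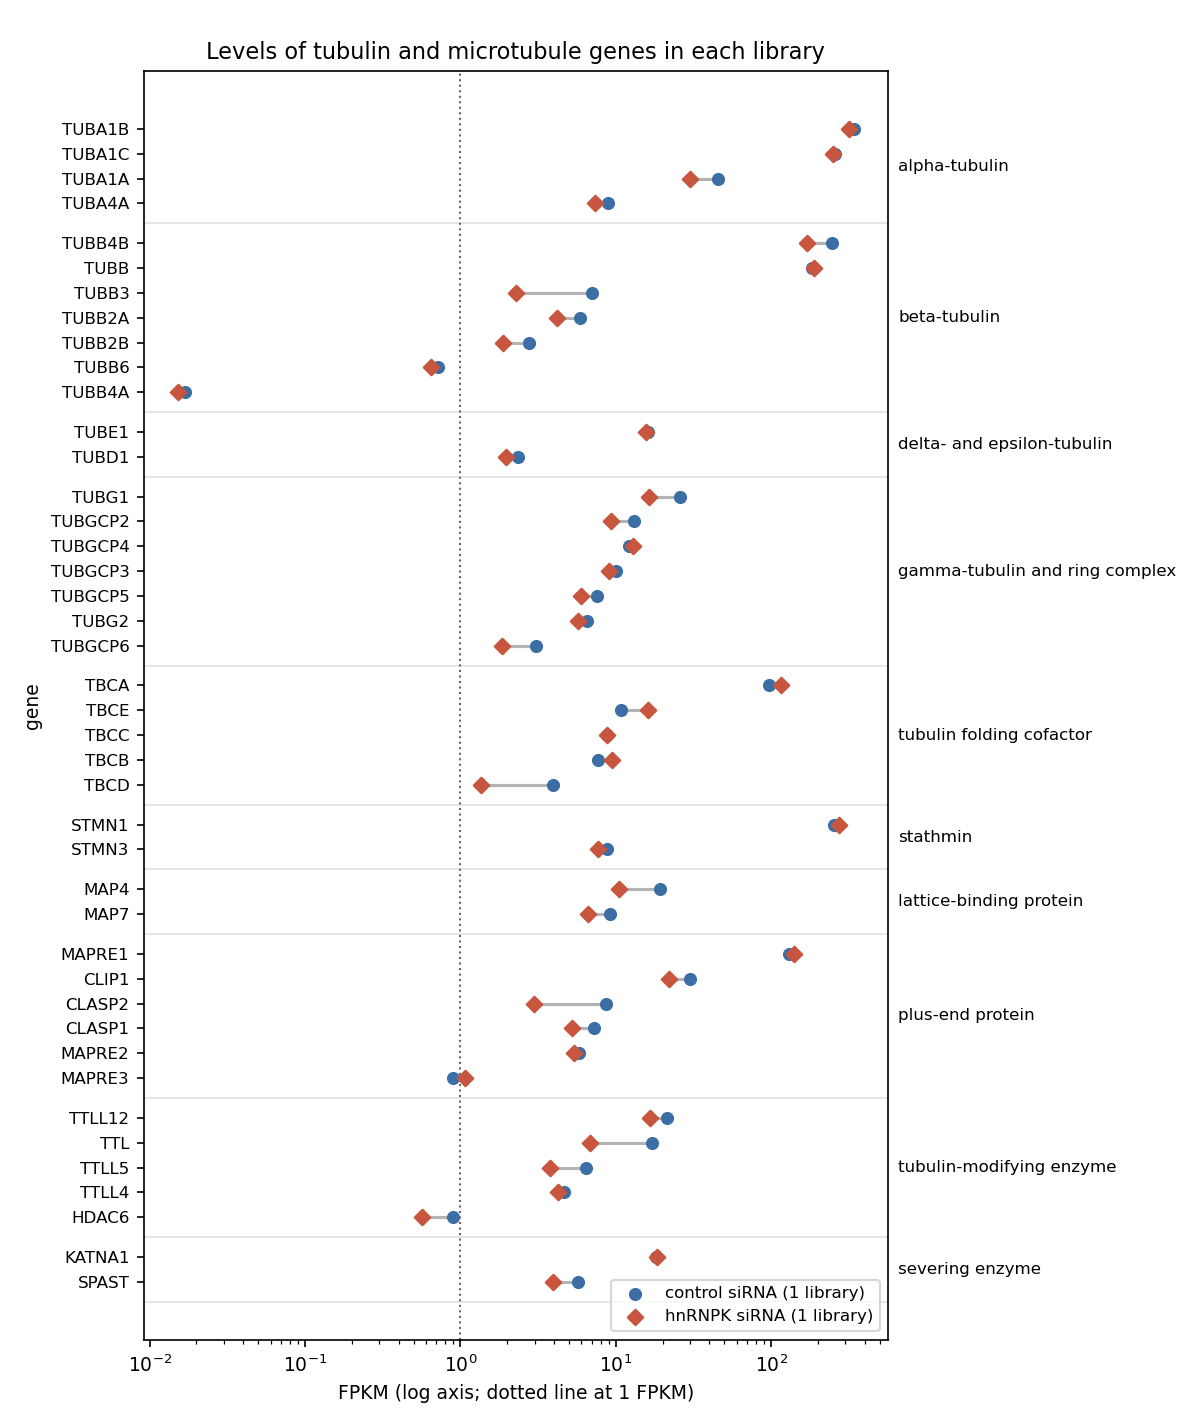
Level of each microtubule gene in FPKM (log axis) in the control library (circles) and the depleted library (diamonds), ordered by role. MAP1B, at 0 in both, is not drawn; the widest gaps are those of TUBB3, TBCD, CLASP2 and TTL, while TUBA1B, TUBA1C and STMN1 stay between 248 and 342 FPKM in both.

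The α-tubulin message pool differed little between the libraries. The 4 genes summed to 654 FPKM in the control library and 600.2 in the depleted library, a ratio of 0.918 (approximate 95% counting interval 0.904 to 0.933). Once the libraries are centred on the median of all genes this ratio is 1.02, so the direction of the pool is set by the scaling. TUBA1B, the most abundant, was at 342 FPKM in the control library and 314 in the depleted library, and TUBA1C was at 257 and 248 FPKM. Both of these common isotypes lay closer to no difference than most of the set, with ratios of 0.920 (0.900 to 0.940) and 0.965 (0.940 to 0.990) that fall on the higher side after centring. TUBA1A, an isotype best known from developing neurons, was at 45.5 FPKM in the control library and 30.2 in the depleted library, a ratio of 0.663 (0.629 to 0.699). TUBA4A, the gene without the tyrosine codon, was at 8.91 and 7.36 FPKM, and its interval included 1 (0.669 to 1.02). Its worked-out length of 833 bases is shorter than its 1344 coding bases, so true reads may be a multiple and the interval too wide. Shares of the α pool were nearly the same in both libraries for TUBA1B (52.3% and 52.4%) and moved from 39.4% to 41.4% for TUBA1C and from 6.97% to 5.03% for TUBA1A.

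These α-tubulin genes resemble each other closely enough that the authors' counting could have split or shared their reads. Of all 50-base stretches of its transcript, TUBA1B had 62.7% that also occur in transcripts of another gene, TUBA1A 41.1% and TUBA1C 25.1%. The level of each, and the share of the pool, is uncertain to that extent, whereas the sum over the 4 genes is less affected. An antisense gene overlaps 72.6% of the exonic bases of TUBA1B and 19.2% of those of TUBA1C, and whether strand was used in counting is not given in the sources used here. Pseudogene and minor tubulin rows were low. The 3 with a mean of at least 1 FPKM were TUBA8 at 2.42 and 1.68 FPKM from 22 and 17 reads, TUBAL3 at 4.15 and 4.03 FPKM, and TUBAP2 at 4.52 and 4.68 FPKM in the control library and the depleted library.

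The β-tubulin pool changed in make-up. Summed over 7 genes it was 445 FPKM in the control library and 367 in the depleted library, 17.5% lower (ratio 0.825, approximate counting interval 0.810 to 0.841), and it stayed below 1 after centring, at 0.913. TUBB4B was the largest β isotype in the control library at 245 FPKM and was at 169 FPKM in the depleted library, a ratio of 0.692 (0.671 to 0.713). TUBB, the other major β isotype of dividing cells, was at 183 and 189 FPKM, and its ratio was 1.03 (1.004 to 1.05), with a log2 ratio of −0.07 under equal totals. The order of these genes was therefore reversed: TUBB4B made up 55.0% of the β pool in the control library and 46.1% in the depleted library, and TUBB 41.3% and 51.4%. The level of TUBB4B relative to TUBB, which no scaling of the libraries alters, went from 1.33 to 0.897. The β pool was 77.6 FPKM lower, and the level in the depleted library minus that in the control library was −75.4 FPKM for TUBB4B and 5.29 FPKM for TUBB. The transcripts of this pair are easier to tell apart than those of the α genes, with 9.89% of 50-base stretches of TUBB4B and 18.2% of those of TUBB found in another gene, for TUBB mostly the pseudogene TUBBP1, listed at 0.308 and 0.362 FPKM. Summed FPKM of α over β was 1.47 in the control library and 1.64 in the depleted library.

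**Figure D2:**
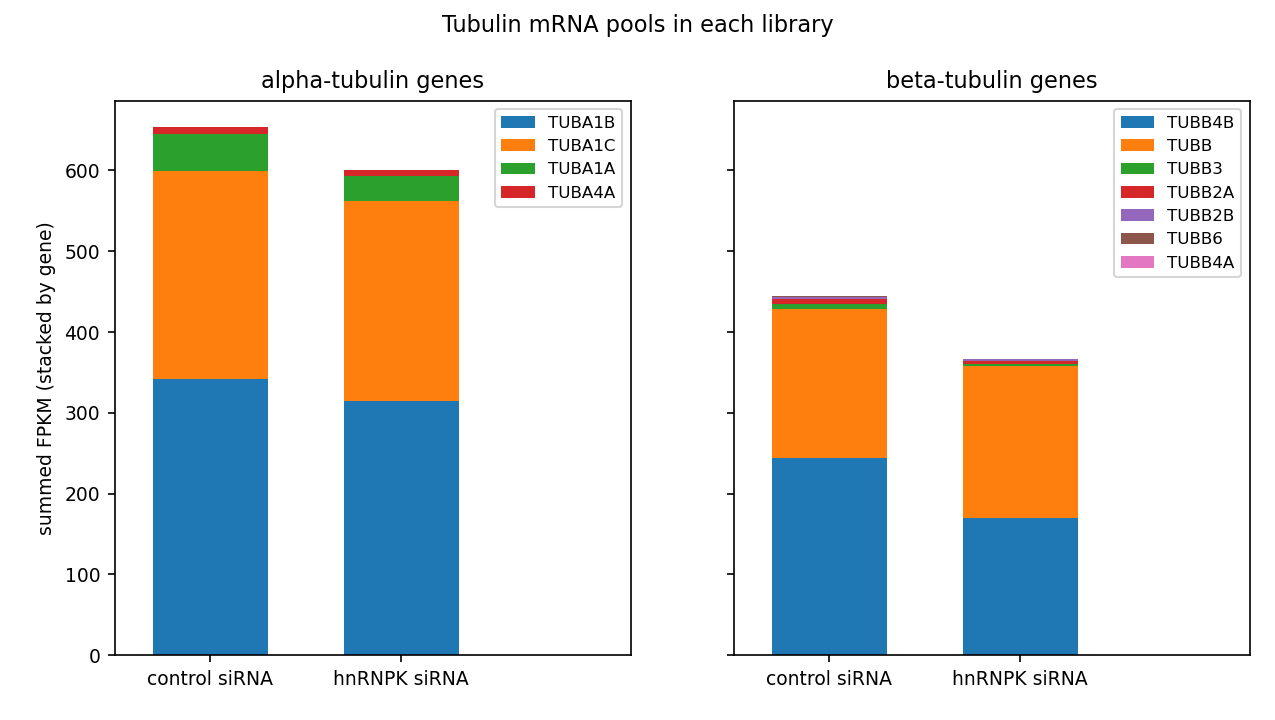
Summed FPKM of the 4 α-tubulin genes (left) and the 7 β-tubulin genes (right) in each library, stacked by gene. The α bars reach 654 and 600.2 FPKM with like proportions, while in the β bars TUBB4B goes from 245 to 169 FPKM and TUBB stays at 183 and 189 FPKM.

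TUBB3, the β isotype used as a neuron marker and often present in tumour cells, had the lowest ratio of the set. It was at 7.07 FPKM in the control library and 2.26 in the depleted library, 3.12-fold lower (2.31 to 4.28) from 166 and 59 reads. Only 1.05% of all genes had a lower log2 ratio. Its transcript shares 89.4% of its 50-base stretches with the overlapping gene model AC092143.1 on the same strand, so reads counted to TUBB3 may belong to that model. The neuron markers given above were near 0 in both libraries, too low to show a like difference.

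TUBB2A and TUBB2B, a neighbouring pair on chromosome 6, were at 5.90 and 2.77 FPKM in the control library and 4.19 and 1.89 FPKM in the depleted library. Their ratios, 0.711 (0.590 to 0.855) and 0.682 (0.527 to 0.881), cannot be read as separate values, because their coding sequences are 98.2% identical and 60.3% of the 50-base stretches of TUBB2A also occur in TUBB2B. TUBB6 was at 0.719 and 0.648 FPKM from 38 reads in each library. TUBB4A rested on 1 read in each, too few for a ratio.

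δ- and ε-tubulin, which are tied to centrioles, differed by less than counting error. TUBD1 was at 2.34 FPKM in the control library and 1.95 in the depleted library (ratio 0.835, 0.658 to 1.06). TUBE1 was at 16.1 and 15.6 FPKM (ratio 0.974, 0.891 to 1.07).

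In the nucleating machinery γ-tubulin itself was lower. TUBG1, the main γ-tubulin gene, was at 26.0 FPKM in the control library and 16.4 in the depleted library, 1.58-fold lower (1.45 to 1.72). Its near copy TUBG2 was at 6.57 and 5.75 FPKM, with an interval that included 1 (0.659 to 1.16). That interval may also be too wide, since the worked-out length, 615 bases, is shorter than the 1353 coding bases. The 2 coding sequences are 94.7% identical and 29.1% of the 50-base stretches of TUBG1 are also in TUBG2, so some reads could have been assigned to either gene. The ring proteins differed among themselves. TUBGCP2, a core subunit of the small complex, was at 13.2 and 9.30 FPKM (ratio 0.706, 0.654 to 0.761), while its partner TUBGCP3 was at 9.99 and 9.07 FPKM (0.908, 0.831 to 0.991), with a log2 ratio of 0.02 after centring. Among the subunits found in the larger ring, TUBGCP5 was at 7.60 and 5.94 FPKM (0.783, 0.704 to 0.870) and TUBGCP6 at 3.06 and 1.84 FPKM (0.602, 0.490 to 0.738). TUBGCP4, at 12.2 and 12.9 FPKM, was the 1 gene of the 7 with a ratio above 1 (1.06, 0.909 to 1.23), a direction that turns with equal totals, and 45.0% of its annotated exonic bases overlap TP53BP1 on the opposite strand.

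The tubulin folding cofactors split, with 1 of them far below the others. TBCD, which holds β-tubulin and takes part in joining it to α-tubulin, was at 3.94 FPKM in the control library and 1.35 in the depleted library, 2.91-fold lower (2.44 to 3.48) from 459 and 175 reads. After centring its log2 ratio was −0.92, no longer past 2-fold. TBCE, the cofactor that holds α-tubulin, was at 10.8 FPKM in the control library and 16.0 in the depleted library, a ratio of 1.49 (1.34 to 1.66), the highest of the whole set. The level of TBCD relative to TBCE went from 0.366 to 0.0844 between the libraries. TBCA, which captures β-tubulin after release from the chaperonin and was the most abundant cofactor, was at 97.4 and 115 FPKM (1.18, 1.14 to 1.22). TBCB, an α-tubulin cofactor, was at 7.69 and 9.40 FPKM (1.22, 1.05 to 1.43), though 22.6% of its exonic bases overlap POLR2I on the opposite strand. TBCC, which triggers release of the finished pair, was level at 8.76 and 8.83 FPKM (1.01, 0.874 to 1.16). With equal totals TBCA, TBCB and TBCE kept ratios above 1 and TBCC did not. For TBCE, 15.5% of exonic bases overlap other annotated genes.

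The 2 chaperones that act before the cofactors lay on the higher side. All 8 CCT subunits had ratios above 1, from 1.02 to 1.49. Ratios above 1 were found for 4032 of the 11454 genes of the whole table that met the minimum. For 7 of the 8 subunits the interval lay above 1, against a background of 20.8%. Summed FPKM of the 8 was 1825 in the control library and 2292 in the depleted library. CCT4, the lowest, had an interval that included 1 (0.984 to 1.06) and a ratio below 1 with equal totals. Of 6 prefoldin subunits 4 had intervals above 1 (background 20.8%) and 2 had intervals that included 1, with ratios from 0.957 to 1.46 and sums of 746 and 973 FPKM. None of these 14 chaperone genes was past 1.5-fold on the FPKM + 1 scale as deposited, but CCT8, PFDN5 and PFDN2 were past it on the higher side after centring, at log2 ratios of 0.72, 0.69 and 0.59. As deposited, 3.67% of all genes were 1.5-fold higher. Centring raises every gene, and the share of all genes after it was not worked out. The centred values of these chaperone genes therefore have no background to be read against. Genes of high level lay higher in general, and most but not all of these chaperone genes had a mean of at least 50 FPKM. The median log2 ratio of all 1310 genes with such a mean was 0.13, against −0.18 below that level. The 7 microtubule genes above it had a median of 0.04. The medians of CCT and prefoldin were 0.27 and 0.28, and the part of level in them was not tested.

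Stathmin 1, which binds free tubulin pairs and promotes shrinkage of filaments, was among the most abundant messages of the set. STMN1 was at 252 FPKM in the control library and 274 in the depleted library (1.09, 1.05 to 1.12). STMN3, a neuronal relative, was at 8.71 and 7.65 FPKM (0.877, 0.779 to 0.988).

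Of the proteins that bind along the filament, MAP4, the main such protein outside neurons, was at 19.3 FPKM in the control library and 10.5 in the depleted library, 1.84-fold lower (1.75 to 1.93) from 4627 and 2795 reads. MAP7, a recruiter of kinesin-1, was at 9.21 and 6.59 FPKM (0.716, 0.611 to 0.837). MAP1B, a neuronal protein, was at 0 in both libraries.

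Among proteins that follow growing ends, CLASP2 had the lowest ratio within the set, and CLIP2, a related gene given further on, had a lower one (0.282). CLASP2, which stabilises filament ends and rescues shrinking ones, was at 8.63 FPKM in the control library and 2.98 in the depleted library, 2.90-fold lower (2.64 to 3.19) from 1587 and 607 reads. CLASP1, its paralog with overlapping roles, was at 7.26 and 5.21 FPKM (0.717, 0.665 to 0.774). CLASP2 was thus the higher of the pair in the control library, at 1.19 times the level of CLASP1, and the lower in the depleted library, at 0.571 times. CLIP1, which links growing ends to cargo, was at 30.1 and 21.9 FPKM (0.729, 0.698 to 0.761). The end-binding protein genes that recruit these factors did not share the shift. MAPRE1, encoding EB1, was at 129 and 140 FPKM (1.08, 1.05 to 1.11), with a log2 ratio of 0.00 under equal totals, and MAPRE2 was at 5.83 and 5.36 FPKM (0.921, 0.825 to 1.03). MAPRE3 was at 0.896 and 1.06 FPKM from 22 and 29 reads.

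Of the 4 enzymes of the set that mark tubulin and entered the counts, 2 were at least 1.5-fold lower, TTL and TTLL5, against a background of 14.7%. TTL, which restores the final tyrosine of the α-tubulin tails shown above, was at 17.2 FPKM in the control library and 6.82 in the depleted library, 2.52-fold lower (2.34 to 2.72) from 2285 and 1006 reads, and it remained past 2-fold after centring. TTLL5, a glutamylase with a preference for α-tubulin, was at 6.39 and 3.78 FPKM (0.591, 0.530 to 0.658). TTLL4, a glutamylase that starts side chains on β-tubulin, was at 4.65 and 4.27 FPKM, with an interval that included 1 (0.818 to 1.03) and a direction that turns after centring. TTLL12, a family member without known glutamylase activity, was at 21.4 and 16.5 FPKM (0.770, 0.720 to 0.823). HDAC6, the tubulin deacetylase, was at 0.893 and 0.569 FPKM from 99 and 70 reads, a ratio of 0.637 (0.462 to 0.874), below the level that entered the counts.

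The severing enzymes of the set differed, with SPAST lower and KATNA1 near no difference. SPAST, encoding spastin, was at 5.74 FPKM in the control library and 3.96 in the depleted library (0.690, 0.619 to 0.769). KATNA1, the catalytic subunit of katanin, was at 18.1 and 18.5 FPKM (1.02, 0.935 to 1.12), with a direction that turns with equal totals.

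**Figure D3:**
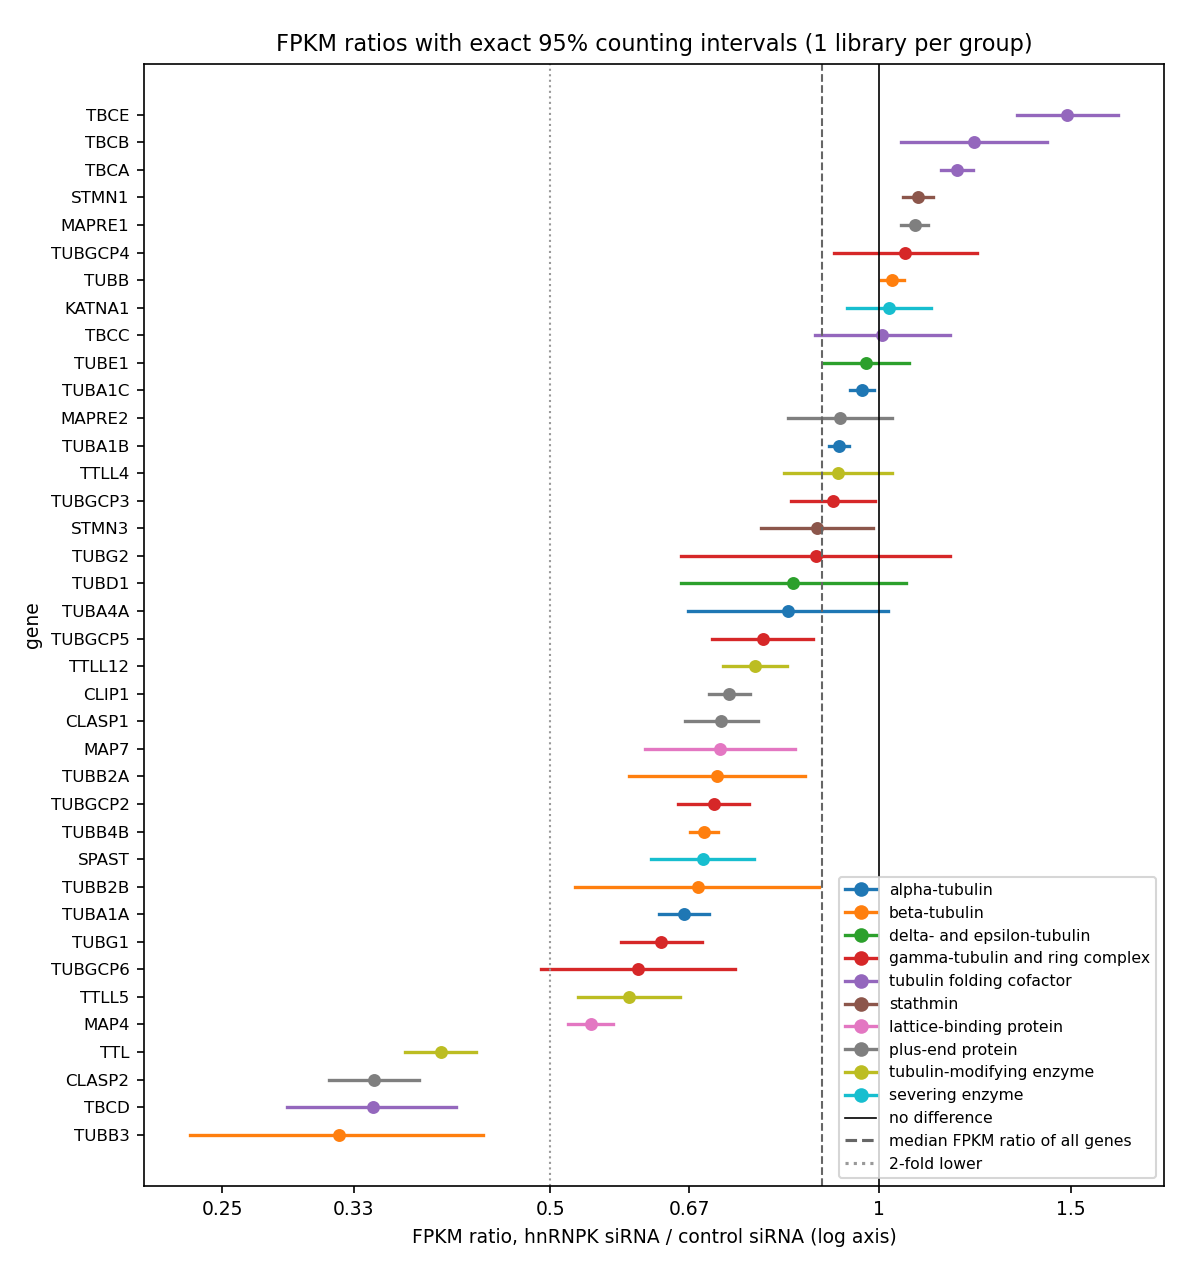
FPKM ratio of the depleted library to the control library (log axis) for the 38 microtubule genes with a mean of at least 1 FPKM, coloured by role, with exact 95% counting intervals as bars. TUBB3, TBCD, CLASP2 and TTL form a separate low end between 0.320 and 0.397, and TBCE lies highest at 1.49; the dashed line is the median ratio of all genes, 0.888.

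Other microtubule genes and the chaperones above were read from a list of 101 symbols, of which 98 were in the table and 63 had a mean of at least 1 FPKM. Of these 63, 1 was at least 2-fold lower (background 3.55%) and 9 at least 1.5-fold lower (background 14.7%). None was 1.5-fold higher, against 3.67% of all genes. The median log2 ratio of the 63 was −0.15, equal to that of all genes, but the 63 include the CCT and prefoldin subunits. These had medians of 0.27 and 0.28, whereas every other group of the list had a median below −0.15, from −0.42 to −0.19. The 1 past 2-fold was CLIP2, the paralog of CLIP1, at 5.07 FPKM in the control library and 1.43 in the depleted library, 3.54-fold lower. TTLL7, a β-tubulin glutamylase, was at 1.51 and 0.509 FPKM (ratio 0.336). AGBL5, which removes branch-point glutamates, was at 7.14 and 4.09 FPKM (0.572), and TTLL1, another glutamylase, at 3.40 and 1.85 FPKM (0.544). TBCEL, a relative of TBCE that destabilises tubulin pairs, was at 5.54 and 3.21 FPKM (0.580). TTC5, the reader of the tubulin start sequences shown above, was at 4.81 and 4.93 FPKM, from 58 and 66 reads as worked out. Its ratio was 1.03 with a wide interval (0.710 to 1.49), which may be too wide if true reads are a multiple.

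Of the 9 other modifying enzymes that met the minimum, 4 were at least 1.5-fold lower, against a background of 14.7%. By intervals, 5 of the 9 lay below 1, near the background of 48.4%. The other 4, TTLL3, ATAT1, SIRT2 and CCDC23, had intervals that included 1. Partners of the γ-tubulin ring had 8 of 15 intervals below 1, also near the background, and 1 above, against a background of 20.8%.

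**Figure D4:**
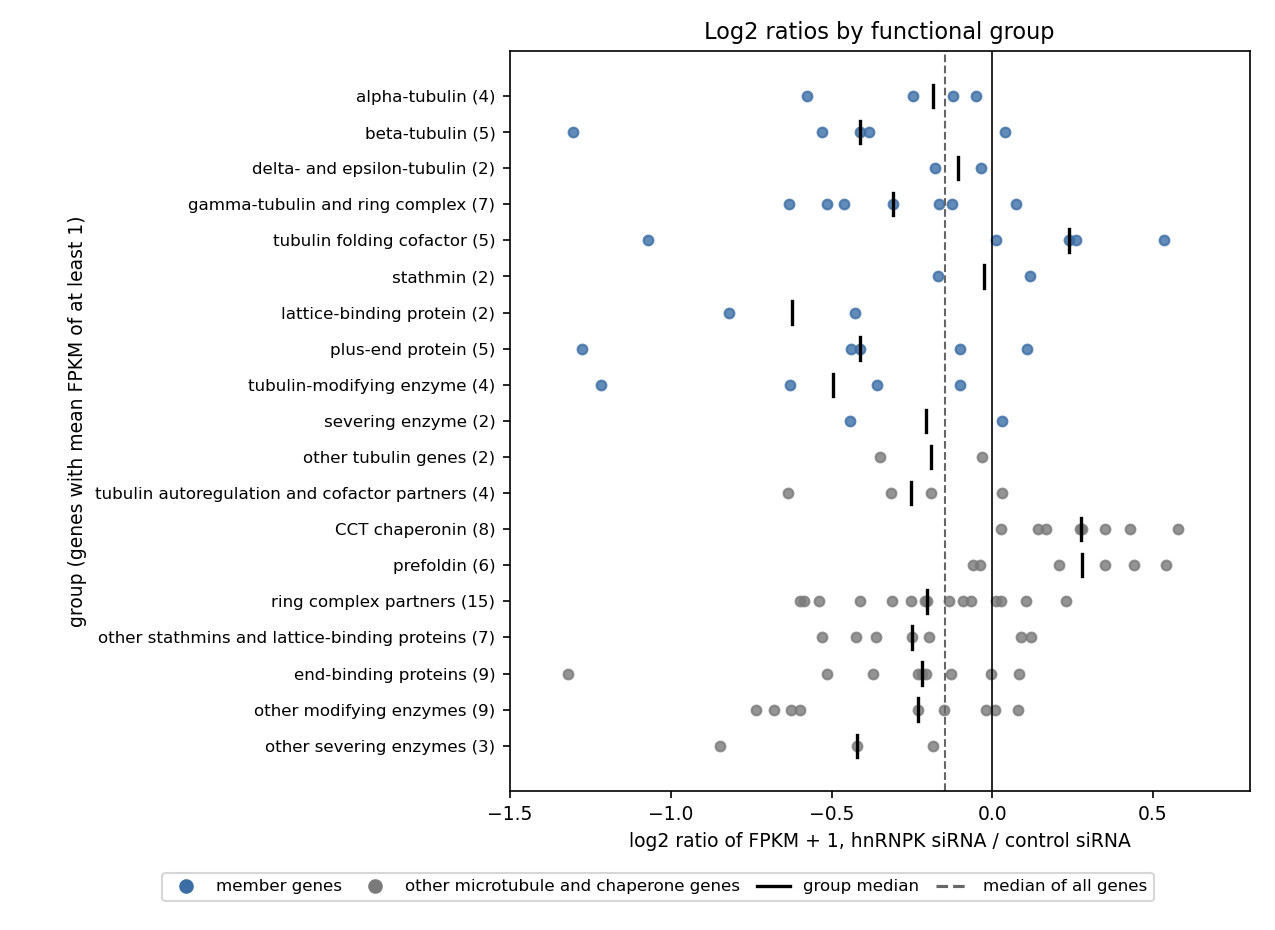
Log2 ratio of FPKM + 1 for each gene with a mean of at least 1 FPKM, by role, for the microtubule genes (blue) and for related genes (grey); bars mark group medians and the dashed line the median of all genes, −0.15. CCT and prefoldin have medians of 0.27 and 0.28, while the 4 tubulin-modifying enzymes of the set have a median of −0.49 and the 9 other modifying enzymes one of −0.23.

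Gene length moved with these values. The length worked out with the reads was at least 4000 bases for 11 of the 38 genes, whose median log2 ratio was −0.46, against −0.17 for the 27 shorter ones. Of the 4 genes at least 2-fold lower, CLASP2, TTL and TBCD were among the 11, while TUBB3 was worked out at 913 bases, which may be a whole fraction of its true length. The same holds for TUBA4A and TUBG2, whose 833 and 615 bases are fewer than their 1344 and 1353 coding bases. Coding lengths were read only for the α-, β- and γ-tubulin genes, so the same may hold for other genes of the set. Some genes counted as shorter may therefore be longer. Over all genes the medians were −0.23 at 4000 bases or more and −0.10 below, and the shares at least 2-fold lower were 3.29% and 3.65%. The part of length in the ratios of the microtubule genes was not tested.

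**Figure D5:**
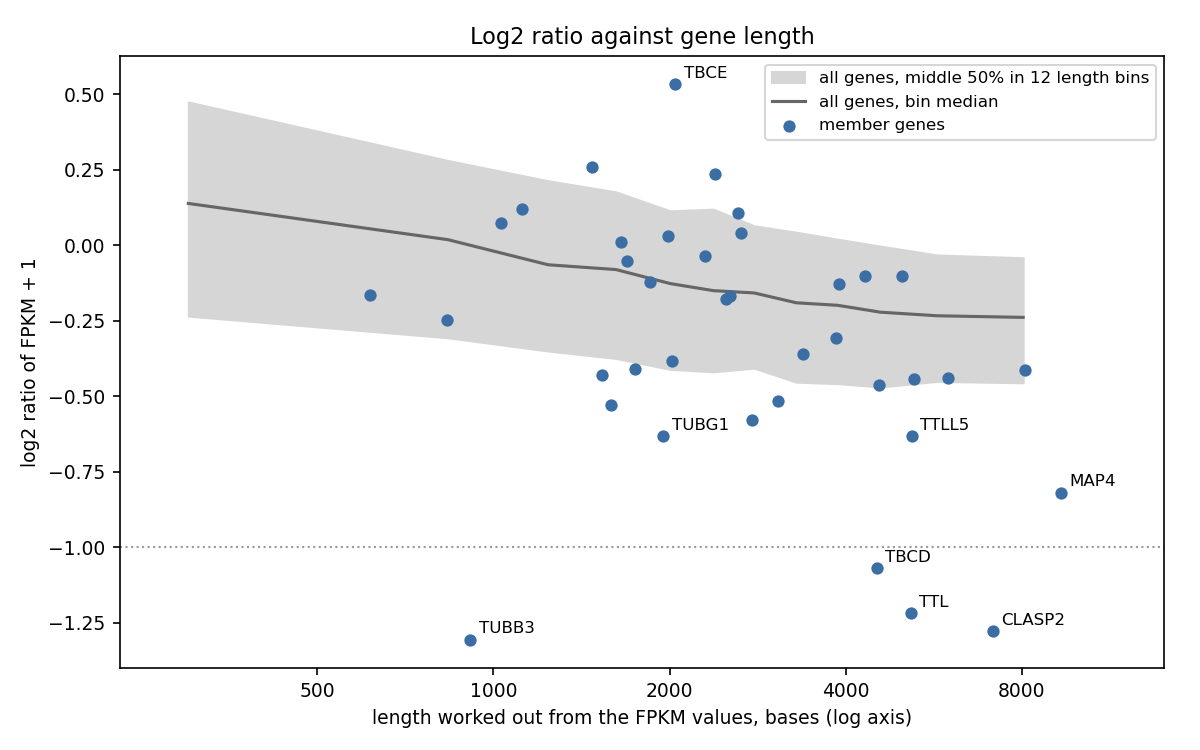
Log2 ratio of FPKM + 1 against gene length in bases (log axis) for the 38 microtubule genes (points), over the median (line) and middle 50% of values (band) of all genes in 12 bins of length. The band drifts down with length, and TTL, TBCD, CLASP2 and MAP4 lie furthest below it at 4524 to 9337 bases, with TUBB3 at 913 bases. Others also lie below it, among them TTLL5 at 5186 bases and the shorter TUBG1, TUBA1A and TUBB4B at 1951, 2769 and 1591 bases.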

How the data were processed

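The authors deposited 1 table of FPKM values, with symbols in rows and the 2 libraries in columns. Total RNA was taken with Trizol, per the labels' protocols. Bowtie 0.12.2 and the build hg19 are named in the submitters' processing notes. For annotation, counting method and strand use, nothing is given in the sources used here. The column of control cells was matched through siNC in its title and the depleted column through Si and K, a less direct match. Reads were worked out from the FPKM values: the most common ratio between columns fixed the library totals, and the smallest whole reads and whole length were then sought (relative tolerance 2e-13, length tolerance 1e-05 bases), which succeeded for 99.42% of 19069 genes above 0. True reads are these or a common multiple. This was tested on simulated data. No count model was fitted.

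The members and gene lists were chosen with earlier results of these data known. Genes averaging at least 1 FPKM were counted past folds of 1.5 and 2 on log2(FPKM + 1). Named genes are all members, HNRNPK, the related genes past 1.5-fold (at most 6 per direction) and tubulin rows with a mean of at least 1 FPKM; CCT4, TTC5 and TUBBP1 were named after their values were seen, and a gene that this rule names is not reported here. Pool intervals use the delta method on Poisson reads. Sequences and overlaps come from GENCODE 29 (GRCh38), so no coordinates are given. Alternatives were other pseudocounts (0.1 and 5 FPKM), filters (none, and a mean of at least 5) and scalings (median centring, and equal totals without small RNAs). Tools were Python 3.11.15, pandas 2.3.3, numpy 2.4.6, scipy 1.17.1 and matplotlib 3.10.9.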

Additional observations from a re-analysis of the deposited data

How the results depend on the processing

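The 4 genes past 2-fold became 0 with a pseudocount of 5 FPKM and 2 among genes averaging at least 5 FPKM, which leaves fewer genes. TBCD crossed 2-fold after centring, which left 3. Over all genes the share at least 2-fold lower was 3.55% as deposited and 0.742% with that pseudocount. It was 3.5% among genes averaging at least 5 FPKM and 2.1% after centring. The 7 past 1.5-fold became 4 with a pseudocount of 5 FPKM, and were 5 to 10 under the other settings; after centring TBCE, the 1 on the higher side, was among 6. The share of all genes at least 1.5-fold lower was 14.7% as deposited and 5.31% with a pseudocount of 5 FPKM. Under the other settings it was 8.97% to 19.5%. The median log2 ratio of the genes, −0.28, was −0.31 when 0.1 FPKM was added, −0.17 when 5 FPKM was added, −0.21 with no filter, −0.17 with the stricter filter, −0.13 after centring and −0.37 with equal totals without small RNAs; the median of all genes was −0.17, −0.09, −0.05, −0.11, 0 and −0.24 under the same settings, each time above it. Centring raised every log2 ratio by 0.15 and equal totals moved high genes by −0.11. The α pool ratio, 0.918, turned to 1.02 after centring and was 0.850 with equal totals; the β pool ratio, 0.825, was 0.913 and 0.764. The HNRNPK ratio, 0.182, was 0.201 and 0.168. Centring changed the direction of 6 of the 38 genes and equal totals that of 5, all of them among the genes near no difference. Adding other tubulin rows left the pool ratios at 0.919 and 0.826. No paired analysis was possible because each group has 1 library and the labels number none. For the same reason no library could be left out. Depth limits TUBB4A, TUBB6, MAPRE3 and TUBA8, which rest on 1 to 38 reads per library.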
